A study of Homo sapiens with 4 samples.

Results

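The 8 genes described here are 4 receptor tyrosine kinases and 4 ligands of the epidermal growth factor (EGF) family, taken by symbol from a count table of 26364 genes. The receptors are EGFR, ERBB2, ERBB3 and MET, and the ligands are EREG, TGFA, HBEGF and AREG. All 8 had a row in the table, and all 8 passed the filter on low counts. They were measured in polysomes of HCT116, an epithelial cell line from a human colorectal carcinoma. Cytoplasmic extracts of cells labelled as a Dicer1 knockout and of wild type cells were separated on sucrose gradients. For each genotype, mRNAs carrying at least 10 ribosomes were sequenced as the heavy library and those carrying 9 or fewer as the light one; each pair is taken here to come from 1 gradient. The 4 groups were thus labelled knockout heavy, wild type heavy, labelled knockout light and wild type light, with 1 library each. The labels do not say how the gene was altered, or whether the altered cells are 1 clone.

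EGF family ligands are made as membrane proteins and are released by proteases of the ADAM family. They bind EGFR, and HBEGF and EREG also bind ERBB4. ERBB2 has no known ligand and acts as a partner in receptor pairs, and ERBB3 has very weak kinase activity and signals through its partners. MET is the receptor of hepatocyte growth factor (HGF) and is not an ErbB receptor. These receptors signal through RAS to the ERK kinases and through PI3 kinase, and colorectal epithelium and its tumours are known for expressing EGFR, EREG and AREG.

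Library totals ran from 17457116 to 20933675 counts, and a count of 0 allows up to 0.143 to 0.172 CPM (reads of a gene scaled by library size). Ribosomal RNA took 2.61 to 5.97% of the counts and was higher in the libraries labelled knockout (4.32% in heavy and 5.97% in light polysomes) than in wild type (2.61% and 3.59%). Its part in the results was not tested. All 5 epithelial markers had at least 50 counts in each library, with a summed level of 9970.3 CPM in labelled knockout heavy, 8731 CPM in wild type heavy, 3265 CPM in labelled knockout light and 1724 CPM in wild type light polysomes. Of 16 markers of fibroblasts, endothelium and blood, COL1A1 alone did, 4 were at 0 in every library (DCN, LUM, PTPRC and CD3E), and no other exceeded 16 counts. The summed level of the 16 markers was 52.4 CPM in labelled knockout heavy, 26.3 CPM in wild type heavy, 18.0 CPM in labelled knockout light and 11.0 CPM in wild type light polysomes. Both this sum and the epithelial sum were thus higher in the libraries labelled knockout, and their part in the results was not tested either. Of the 16 markers only COL1A1 passed 16 counts, so their sum cannot be read as a rise of several cell types. DICER1, the gene named in the label, was not lower in the libraries labelled knockout. It had 925 counts in labelled knockout heavy against 500 in wild type heavy, and 889 in labelled knockout light against 547 in wild type light polysomes. Counts of the entire gene cannot tell a working from a broken transcript. These libraries are therefore called labelled knockout throughout, and every direction between the genotypes rests on a label that the DICER1 counts could not check.

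Dicer makes microRNAs, which bind short sites in the 3′ untranslated region (UTR) of an mRNA, mainly through their bases 2 to 8, the seed. Sites of 13 microRNA families were searched in 1 annotated transcript of each of the 8 genes. The 3 microRNAs shown here are those whose sites fell in EGFR and TGFA, in ERBB2 and ERBB3, and in MET, AREG and TGFA, and the capitals mark the seed (RefSeq, GRCh38).
hsa-miR-7-5p: uGGAAGACuagugauuuuguuguu
hsa-miR-125b-5p: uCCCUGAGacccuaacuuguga
hsa-miR-34a-5p: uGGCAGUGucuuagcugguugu

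EGFR and TGFA each held 3 matches to the miR-7 seed (GTCTTCC on the mRNA strand). They are shown as the 2 members that hold this match, chosen with their values known, and whether the matches bear on their levels was not tested. The capitals mark the match, the sequences run 5′ to 3′ on the mRNA strand, and all lie in the 3′ UTR (GENCODE release 44, GRCh38).
EGFR, chr7:55206063-55206092, plus strand: acaagccacaaGTCTTCCagaggatgcttg
EGFR, chr7:55206346-55206375, plus strand: ctgacttgtttGTCTTCCattccattgttt
EGFR, chr7:55208341-55208370, plus strand: catccctgaagGTCTTCCtgattgatagcc
TGFA, chr2:70450069-70450098, minus strand: gcttgggaaaaGTCTTCCagggtgcggaga
TGFA, chr2:70449553-70449582, minus strand: ccactatgtggGTCTTCCtttcccctcaag
TGFA, chr2:70449237-70449266, minus strand: cagagaattttGTCTTCCcctaattcttct
Of 949 3′ UTRs within 20% of the length of that of EGFR, 32.8% held this match at least once, and of 1933 near the length of that of TGFA, 22.2% did.

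ERBB2 and ERBB3 shared a match to the miR-125 seed (CTCAGGG) close behind their stop codons, 37 and 19 bases into the 3′ UTR. MET held 2 matches to the miR-34a seed (CACTGCC).
ERBB2, chr17:39728070-39728099, plus strand: cctgatgtgtcCTCAGGGagcagggaaggc
ERBB3, chr12:56102063-56102092, plus strand: tccctgtggcaCTCAGGGagcatttaatgg
MET, chr7:116796164-116796193, plus strand: aatggttttttCACTGCCtgacctttaaaa
MET, chr7:116798278-116798307, plus strand: tagatacttgtCACTGCCtatacctgcagc
The miR-125 match occurred in 8.43% of 3′ UTRs near the length of that of ERBB2 and in 14.8% near that of ERBB3. The miR-34a match occurred in 21.5% near that of MET. EGFR, with a 3′ UTR of 6011 nucleotides, held matches for 8 of the 13 families and ERBB3 for 5. EREG held 2, for miR-17 and for miR-200b/c, in 3941 nucleotides. HBEGF held a match for let-7 (CTACCTC), as did 9.46% of 3′ UTRs near its length. A match is a description of the letters and does not show that a microRNA acts there.

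Per kilobase of 3′ UTR, the ligands held more copies of AUUUA, the core of AU-rich elements that mark many unstable mRNAs, with 3.43 to 15.1 copies against 0.0 to 3.11 in the receptors. EREG had 20 copies, more than 95.9% of the 3′ UTRs near its length. AREG had 4 copies in only 265 nucleotides, more than 99.1% of those near its length. TGFA had 13 copies, more than 80.5% of those near its length, and HBEGF had 5, more than 73.9%. Among the receptors, EGFR had 9 copies, against a median of 13.0 near its length, ERBB3 had 2 and ERBB2 had 0. MET had 7, more than 69.1% of those near its length and thus close to HBEGF.

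In GRCh38, EREG (chr4:74365145-74388749) and AREG (chr4:74445136-74455005) are neighbouring genes on the plus strand of chromosome 4. The other members lie apart, with EGFR (chr7:55019017-55211628) and MET (chr7:116672196-116798377) on the plus strand of chromosome 7, ERBB2 (chr17:39687914-39730426) on that of chromosome 17 and ERBB3 (chr12:56076799-56103505) on that of chromosome 12. TGFA (chr2:70447284-70554193) and HBEGF (chr5:140332843-140346603) lie on the minus strand.

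EREG, which encodes the ligand epiregulin, was by far the most abundant of the 8 mRNAs, and EGFR was the least abundant per length. Levels between genes are compared here as TMM-scaled CPM per kilobase of transcript, where TMM is a scaling of libraries to a common size. EREG stood at 272 in labelled knockout heavy, 213 in wild type heavy, 335 in labelled knockout light and 202 CPM per kilobase in wild type light polysomes. It lay above 96.7 to 98.0% of the tested genes. EREG made up 93.1% of the summed level per length of the 4 ligands in labelled knockout heavy and 87.8% in wild type heavy polysomes. The shares were 92.1% in labelled knockout light and 80.3% in wild type light polysomes.

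MET was the most abundant receptor in every library, at 45.0 to 64.1 CPM per kilobase and 67.0 to 77.6% of the summed level per length of the 4 receptors. EGFR ranged from 1.02 to 3.40 CPM per kilobase, below every other member in every library. Between MET and EGFR lay TGFA (8.34 to 25.8 CPM per kilobase), ERBB2 (6.79 to 15.1), HBEGF (6.54 to 14.0), ERBB3 (4.97 to 11.1) and AREG (5.37 to 9.94). Their ranges over the 4 libraries overlapped, so no order among them is given, and that order also depended on the transcript length used. EREG exceeded the 4 receptors together 3.03-fold in labelled knockout heavy, 2.31-fold in wild type heavy, 5.58-fold in labelled knockout light and 2.83-fold in wild type light polysomes. AREG, the ligand amphiregulin, may be counted too low: the hg19 assembly is known to hold a second, nearly identical AREG copy, and how reads that map to both were counted is not given in the sources used here.

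**Figure D1:**
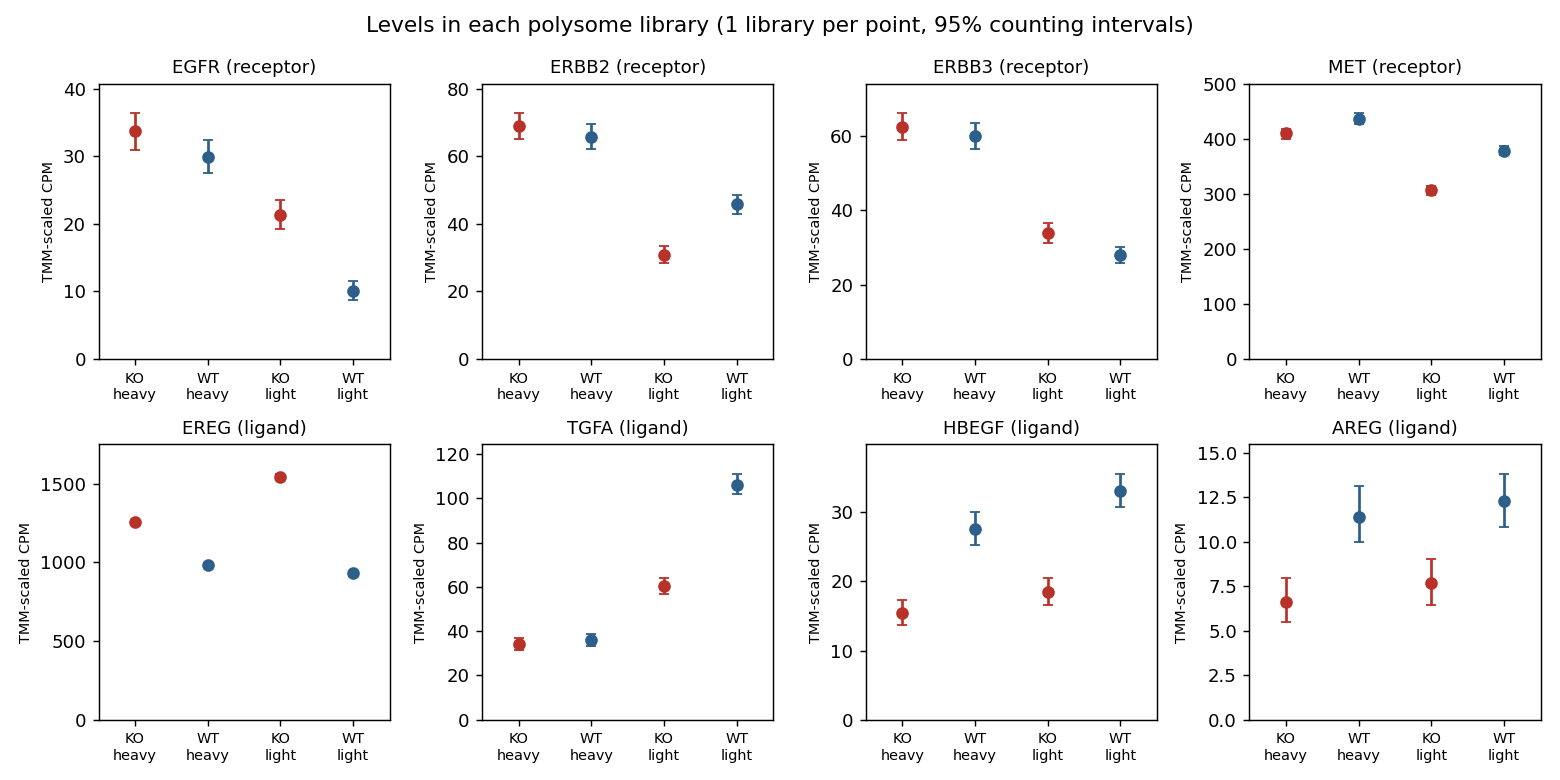
TMM-scaled CPM of each gene (vertical axes from 0, on a scale of its own for each gene) in the 4 libraries; red points are labelled knockout (KO), blue points wild type (WT), 1 library per point, and bars are exact 95% counting intervals. HBEGF and AREG lie lower in both libraries labelled knockout, EREG lies higher in both, and TGFA stands out at 106 CPM in wild type light polysomes.

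The first comparison asked whether these mRNAs lay in heavy or in light polysomes. The 3 ErbB receptors were called toward heavy polysomes, and TGFA toward light. EGFR had 33.7 CPM in labelled knockout heavy against 21.3 in labelled knockout light polysomes, and 29.9 CPM in wild type heavy against 10.1 in wild type light polysomes. Both heavy libraries were above both light ones, and the fitted log2 heavy to light ratio was 1.10 (SE 0.26, edgeR quasi-likelihood test, adjusted p = 9.36e-05). ERBB3 had 62.3 CPM in labelled knockout heavy against 33.9 in labelled knockout light polysomes, and 59.9 CPM in wild type heavy against 27.9 in wild type light polysomes. Its ratio was the most alike in both gradients among the 3, with a fitted log2 value of 0.99 (SE 0.26, edgeR adjusted p = 0.000534).

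ERBB2 had 68.9 CPM in labelled knockout heavy against 30.9 in labelled knockout light polysomes, and 65.8 CPM in wild type heavy against 45.8 in wild type light polysomes. Its heavy libraries were nearly equal, both lay above both light ones, and the fitted log2 ratio was 0.84 (SE 0.27, edgeR adjusted p = 0.00403). MET, unlike these 3, was not called, with 410 CPM in labelled knockout heavy against 307 in labelled knockout light polysomes, and 437 CPM in wild type heavy against 379 in wild type light polysomes. The heavy libraries were again above the light ones, but the log2 ratio of 0.31 (SE 0.31) was as small as its error (edgeR adjusted p = 0.384). With library totals in place of TMM its log2 ratio in the wild type gradient was -0.10 against 0.21 with TMM. Without the gradient as a block, EGFR (edgeR adjusted p = 0.0549) and ERBB2 (0.0525) lost their calls.

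Transforming growth factor alpha, encoded by TGFA, was the ligand called toward light polysomes. It had 34.3 CPM in labelled knockout heavy against 60.3 in labelled knockout light polysomes, and 36.1 CPM in wild type heavy against 106 in wild type light polysomes. The light libraries were both above the heavy ones, and the fitted log2 ratio was -1.19 (SE 0.27, edgeR adjusted p = 5.14e-05). The other 3 ligands were not called. HBEGF, which encodes the heparin-binding ligand, had 15.4 CPM in labelled knockout heavy against 18.5 in labelled knockout light polysomes, and 27.6 CPM in wild type heavy against 33.0 in wild type light polysomes (fitted log2 ratio -0.26, SE 0.26, edgeR adjusted p = 0.382). Light lay above heavy in both gradients, each with a log2 ratio of -0.26 (interval -0.49 to -0.03 in labelled knockout and -0.43 to -0.10 in wild type).

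AREG had 6.63 CPM in labelled knockout heavy against 7.68 in labelled knockout light polysomes, and 11.4 CPM in wild type heavy against 12.3 in wild type light polysomes (fitted log2 ratio -0.15, SE 0.27, edgeR adjusted p = 0.636). EREG had 1255 CPM in labelled knockout heavy against 1545 in labelled knockout light polysomes, and 984 CPM in wild type heavy against 934 in wild type light polysomes. The fitted log2 ratio of EREG was -0.11 (SE 0.32, edgeR adjusted p = 0.781), and its gradients pointed in opposite directions. With library totals both lay below 0 (-0.46 in labelled knockout and -0.23 in wild type). In the wild type gradient AREG had a log2 ratio of -0.10 with TMM and 0.01 with DESeq2 size factors.

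**Figure D2:**
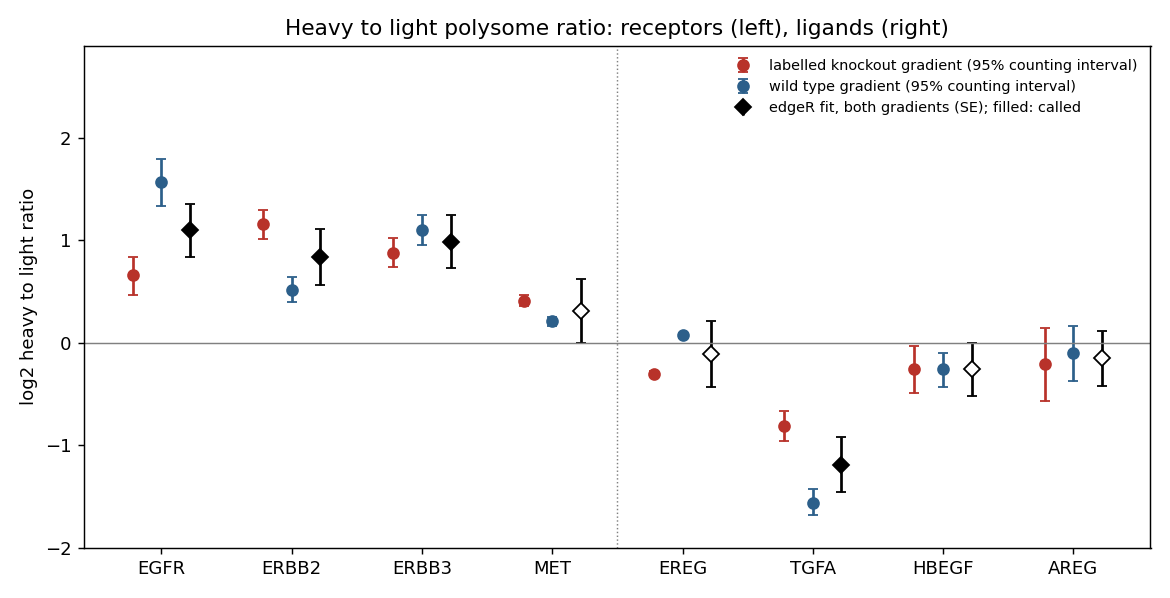
Log2 heavy to light ratio (vertical axis) of each gene (horizontal axis); red and blue points are the labelled knockout and wild type gradients with 95% counting intervals, and diamonds the edgeR fit over both gradients with its SE, filled where called. The 3 ErbB receptors lie above 0 in both gradients and TGFA below 0 in both, while the diamonds of MET, EREG, HBEGF and AREG are not filled.

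The background is high: 59.3% of the 13574 tested genes passed the same threshold, 30.0% in the heavy direction and 29.3% in the light one. That near-even split depends on the scaling: 50.6% of the calls were toward heavy polysomes with TMM, and 38.9% with library totals (3195 heavy and 5023 light). The 3 of 8 members called heavy and the 1 called light are near that background and do not set the group apart. The median fitted log2 ratio was 0.91 for the 4 receptors, -0.21 for the 4 ligands and -0.07 for all genes. With library totals the median of all genes was -0.30, and the same 4 members were called in the same directions. The spread behind these p-values comes from the disagreement between 2 gradients that differ in genotype, pooled largely over genes by the fit. With 1 residual degree of freedom it does not measure the disagreement of each gene by itself. HBEGF, with a log2 ratio of -0.26 in both gradients, and EGFR, with 0.66 and 1.57, both had an SE of 0.26.

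Receptors and ligands also differ in the length of their coding sequences, 3630 to 4170 nucleotides against 480 to 756, and a longer coding sequence can hold more ribosomes. Among 1249 tested genes with 3000 to 5000 coding nucleotides the median log2 ratio was 0.81 and 57.7% were called heavy. EGFR, ERBB3 and ERBB2 lay above that median and MET, at 0.31, below it. Among 1036 genes of up to 500 nucleotides the median was -1.23 and 85.5% were called light, close to TGFA at -1.19. For 500 to 1000 nucleotides it was -0.51, with 42.9% called light. EREG, HBEGF and AREG all lay above this median, although the 507 coding nucleotides of EREG are only just past those of the shortest class.

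**Figure D3:**
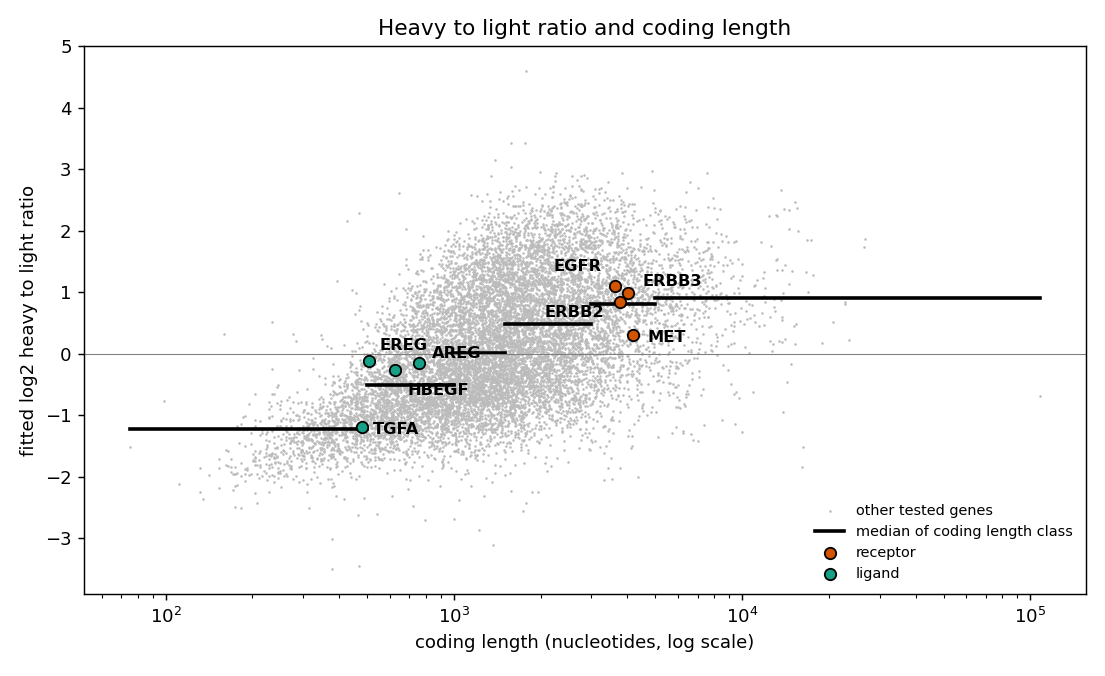
Fitted log2 heavy to light ratio (vertical axis) against coding length in nucleotides (horizontal log axis) for the tested genes with an annotated coding sequence (grey), the receptors (orange) and the ligands (green); black bars are medians of 6 coding length classes. ERBB2 and TGFA lie close to the bar of their class, MET lies below its bar, and EGFR, ERBB3, EREG, HBEGF and AREG lie above theirs.

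The second comparison was between the genotypes, fraction by fraction. With 1 library on each side it has neither a replicate check nor a p-value, and its intervals cover counting error only. Fewer cells that express a gene and less of its mRNA per cell cannot be told apart here. HBEGF and AREG were lower in both libraries labelled knockout. HBEGF had 279 counts in labelled knockout heavy against 521 in wild type heavy, and 339 in labelled knockout light against 727 in wild type light polysomes. The log2 ratio of HBEGF was -0.84 in both fractions (heavy -1.05 to -0.62, light -1.03 to -0.65), and 3.92% in heavy and 4.09% in light polysomes of 10418 genes lay lower. AREG had 120 counts in labelled knockout heavy against 216 in wild type heavy, and 141 in labelled knockout light against 270 in wild type light polysomes. Its log2 ratios were -0.78 (-1.12 to -0.46) and -0.68 (-0.98 to -0.38), under the limit on its counting named above.

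EREG went the other way. It had 22714 counts in labelled knockout heavy against 18602 in wild type heavy, and 28381 in labelled knockout light against 20560 in wild type light polysomes. The log2 ratio was 0.35 in heavy (0.32 to 0.38) and 0.73 in light polysomes (0.70 to 0.75), so the most abundant ligand was 1.28-fold and 1.65-fold higher. Of all genes compared, 79.8% in heavy and 90.2% in light polysomes lay below it. TGFA was nearly level in heavy polysomes, with 621 counts in labelled knockout against 683 in wild type (log2 ratio -0.07, -0.23 to 0.09). In light polysomes it had 1108 counts in labelled knockout against 2341 in wild type (-0.82, -0.92 to -0.71), and 4.47% of genes lay lower.

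Among the receptors, EGFR was 2.12-fold higher in light polysomes of the labelled knockout, with 392 counts against 222 in wild type (log2 ratio 1.08, 0.84 to 1.33), and 96.8% of genes lay below it. In heavy polysomes it had 609 counts in labelled knockout against 565 in wild type (0.17, 0.00 to 0.34). ERBB2 was lower in light polysomes, with 568 counts in labelled knockout against 1009 in wild type (-0.57, -0.72 to -0.42), and had 1246 in labelled knockout heavy against 1244 in wild type heavy polysomes (0.07, -0.05 to 0.18). In light polysomes 10.4% of genes lay lower than ERBB2. EGFR and ERBB2 thus differed between the genotypes mainly in the light fraction, and in opposite directions.

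ERBB3 had log2 ratios of 0.06 in heavy (-0.06 to 0.18) and 0.28 in light polysomes (0.12 to 0.45). MET, with counts of 5644 to 8345, had -0.09 (-0.14 to -0.05) and -0.30 (-0.35 to -0.25). None of the 8 members differed 2-fold in both fractions, as 2.41% of genes did (1.20% higher and 1.21% lower). In the light pair alone, EGFR was the only member past 2-fold, as were 7.06% of genes (3.95% higher and 3.11% lower). In the heavy pair no member was, against 5.94% of genes (3.31% higher and 2.63% lower). The light value of EGFR lay close to the 2-fold limit. With library totals in place of TMM its log2 ratio, 1.0 after rounding, fell just short of that limit. The median log2 ratio of the ligands was -0.43 in heavy and -0.75 in light polysomes, that of the receptors 0.06 and -0.01, and that of all genes -0.03 and 0.03. With heavy and light CPM summed, the log2 ratio was 0.46 for EGFR, -0.16 for ERBB2 and -0.59 for TGFA.

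**Figure D4:**
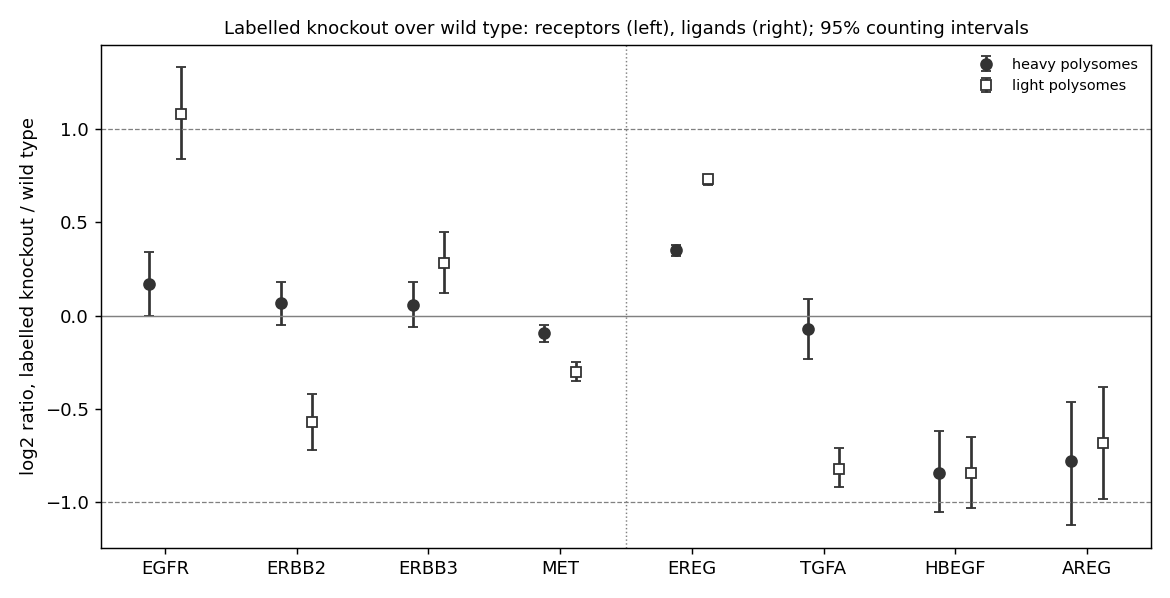
Labelled knockout over wild type on a log2 scale (vertical axis) for each gene in heavy (filled circles) and light polysomes (open squares), with exact 95% counting intervals; dashed lines mark 2-fold. The squares of EGFR and TGFA lie far from their circles, in opposite directions, while both symbols of HBEGF lie at -0.84.

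The same counts can be read as a shift of each mRNA between the fractions, that is, its log2 heavy to light ratio in labelled knockout cells less the ratio in wild type cells. EGFR shifted by -0.91 (interval -1.20 to -0.62), with log2 ratios of 0.66 in the labelled knockout and 1.57 in the wild type. Of 10834 genes, 3.95% shifted further toward light polysomes. TGFA shifted by 0.74 (0.56 to 0.93), with -0.81 in the labelled knockout and -1.56 in the wild type, and 95.1% of genes lay below it. ERBB2 shifted by 0.63 (0.45 to 0.82), with 1.16 in the labelled knockout and 0.52 in the wild type.

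The shifts of the other 5 were smaller, from -0.37 (-0.41 to -0.34) for EREG to 0.21 (0.14 to 0.28) for MET, and those of HBEGF (0.00, -0.28 to 0.28) and AREG (-0.11, -0.54 to 0.33) had intervals that included 0. No member shifted 2-fold, as 3.42% of genes did. With DESeq2 size factors EGFR alone reached that limit.

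The genes closest to each member over the 4 libraries were found by the distance between their centred log2 levels among 10585 other protein-coding genes. Those given here lay at distances of 0.03 to 0.08. They were MINPP1 and CCNT1 for EGFR, DENND3 and UVSSA for ERBB2, ACAD8 for ERBB3, and PAXIP1 and GABPA for MET. Those of the ligands were PTAR1 and PON2 for EREG, SLC25A37 and TMEM243 for TGFA, BTBD2 and RPGR for HBEGF, and CLDN7 and ZYX for AREG. With 4 libraries, many genes share a pattern.

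Other ligands and receptors of the same families were scarce. HGF, the ligand of MET, and the neuregulin NRG3 had 0 counts in every library, and ERBB4 had at most 2. MST1R, the receptor most like MET, was well measured and called toward heavy polysomes (log2 ratio 1.32, SE 0.26, edgeR adjusted p = 3.11e-06). Of 6 genes tested among these 11, MST1R was called heavy and the ligand betacellulin, BTC, light (-1.61, SE 0.40, edgeR adjusted p = 0.000207). The neuregulin NRG1, a ligand of ERBB3 and ERBB4, had 73 counts in labelled knockout heavy against 4 in wild type heavy, and 105 in labelled knockout light against 18 in wild type light polysomes. Its log2 ratios were 4.25 (2.84 to 6.17) and 2.81 (2.08 to 3.62), at a level too low for the count of genes past 2-fold. EGF itself had 6 counts in labelled knockout heavy against 21 in wild type heavy, and 2 in labelled knockout light against 13 in wild type light polysomes.

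Among 11 tested genes for shedding of the ligands, 6 were called toward heavy polysomes and 5 were not called (median log2 ratio 0.60). The tetraspanin CD9, which binds the HBEGF precursor, stood at 1.54 and the protease nardilysin, NRD1, at 1.40, while ADAM9 (-0.04) and FRMD8 (-0.09) were not called. ADAM17, the main protease that releases these ligands, stood at 0.60 (edgeR adjusted p = 0.0357) and had genotype log2 ratios of -0.14 in heavy and -0.07 in light polysomes. ADAM19, another membrane protease, alone of 10 genes with enough counts passed 2-fold between the genotypes in both fractions, against 2.41% of all genes. Its log2 ratios were 1.94 in heavy (1.80 to 2.07) and 1.59 in light polysomes (1.47 to 1.72). Of the 7 tested genes around MET and HGF activation, 4 were called heavy and 3 were not called (median 0.98), with the plexin PLXNB2 at 1.56 and CD44, a MET co-receptor, at 1.25. Between the genotypes CD44 had log2 ratios of -0.47 in heavy and 0.57 in light polysomes, so its heavy to light ratio differed between the gradients.

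Of 22 genes that inhibit these receptors or sort them after uptake, 7 were called heavy, 6 light and 9 neither (median 0.22). HGS, which sorts receptors to lysosomes, stood at 2.60 and the ubiquitin ligase CBLC at 1.61. Between the genotypes HGS had log2 ratios of -0.74 in heavy and 0.37 in light polysomes, so its heavy to light ratio differed between the gradients. SOCS4 stood at -1.50 and ERRFI1, a feedback inhibitor that binds the EGFR kinase, at -1.23 (all 4 called). ERRFI1 was also lower in the labelled knockout, with 7757 counts in labelled knockout heavy against 13903 in wild type heavy, and 13938 in labelled knockout light against 50303 in wild type light polysomes (log2 ratios -0.78 and -1.59). Of 24 adaptors and downstream kinases, 4 were called heavy and 5 light (median -0.23), with STAT3 at 2.10 and PLCG1 at 2.14, against NRAS at -1.63.

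Of 23 other receptor tyrosine kinases tested, 13 were called heavy, 1 light and 9 neither (median log2 ratio 0.80), led by PTK7 at 1.83 and EPHB3 at 1.73, and the 1 called light was RYK (-1.38). MST1R is counted in this list too. Between the genotypes, EPHA4 alone of 21 passed 2-fold in both fractions, at 1.87 in heavy (1.51 to 2.25) and 2.43 in light polysomes (1.95 to 2.95), against 2.41% of all genes. With enough counts, no gene passed it among 23 adaptors and downstream kinases, 19 inhibitors and sorting genes and 7 genes around MET. Nor did MST1R, the only 1 of the other ErbB and MET ligands and receptors with enough counts. Shifts of 2-fold were counted for 2 of 22 inhibitors and sorting genes and 1 of 7 around MET, against 3.42% of all genes. In the other lists no gene shifted 2-fold. None of these lists was tested as a whole. Each count of heavy and light calls is to be read against the 30.0% and 29.3% of all genes so called. Those shares change with coding length. Of genes with 1500 to 3000 coding nucleotides 44.7% were called heavy and 12.1% light, and of those with 3000 to 5000, 57.7% and 5.6%. The lists were not matched for coding length.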

How the data were processed

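The authors deposited 1 table of whole-number read counts per gene symbol for 4 libraries, not normalised as far as the values show. The build hg19 and the tools HTSeq, STAR and CASAVA are named in the submitters' processing notes. No source used here gives versions, annotation or whether counting used strand. Reads from overlapping antisense genes may therefore be mixed in, which touches 6.9% of the exon bases of ERBB2 and 1.2% of those of EGFR.

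The whole table was fitted with edgeR 4.0.16 in R 4.3.3 (TMM scaling, filterByExpr, quasi-likelihood test, gradient as a block, 1 residual degree of freedom). A call needed an adjusted p (Benjamini-Hochberg over all 13574 genes tested) under 0.05. The labels give a heavy and a light library per genotype, taken as 2 gradients that served as replicates of the fraction contrast. They do not say whether these were separate cultures. The fit was tested on simulated counts. Between genotypes, log2 ratios of TMM-scaled CPM had exact conditional binomial 95% intervals. Ratios were counted at 2-fold or more in both fractions where the higher library of each pair reached 100 counts. Shifts had Wald intervals and needed 2-fold, an interval excluding 0 and at least 50 counts in each library. Without molecular identifiers PCR copies count as reads, so intervals and floors cover counting error only. GENCODE release 44 (GRCh38) gave lengths, 3′ UTRs and positions, and 24427 of 26364 symbols matched (23035 directly, the remainder through RefSeq synonyms), all 8 members among them. Counts stayed those made on hg19.

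Alternatives were DESeq2 1.42.0 size factors and test, library totals, no filter, no block, each gradient alone, a prior count of 2, summed fractions, minimums of 20 counts and exon union length. Tables were made in Python 3.11.15 (pandas 2.3.3, scipy 1.17.1). The members and gene lists were chosen with earlier results of these data known. Named were the 8 members, DICER1, the 2 nearest genes of each member and, from each list, extremes of either comparison, of which some are given as counts only. A few of the genes so chosen are not reported here. ADAM17, HGF, NRG3 and ERBB4 were named for their roles after their values were seen.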

Additional observations from a re-analysis of the deposited data

Results flagged for a closer look

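For EREG the gradients pointed in opposite directions, with a log2 heavy to light ratio of -0.30 in the labelled knockout and 0.08 in the wild type. The difference between genotypes was not tested, since each has 1 gradient, and with library totals both ratios were below 0. For ERBB2 the fractions pointed in opposite directions, with labelled knockout over wild type at 0.07 (log2) in heavy and -0.57 in light polysomes. The counting interval of the heavy value included 0, and this difference was not tested either.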

How the results depend on the processing

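Calls of all 8 members toward heavy or light polysomes were the same with DESeq2 size factors, library totals, no filter and the DESeq2 test. Without the gradient as a block, 1 member in place of 3 was called toward heavy polysomes, since EGFR and ERBB2 missed the threshold, and 2183 genes in place of 3977 were called toward light. With each gradient alone no test is possible, and the log2 ratios ran from 0.66 to 1.57 for EGFR, from 0.52 to 1.16 for ERBB2 and from -1.56 to -0.81 for TGFA. Between the genotypes, 0 members were past 2-fold in both fractions under every alternative tried. Over all genes, 125 higher and 126 lower became 209 and 222 with the fractions summed, and 218 and 231 with a minimum of 20 counts. With DESeq2 size factors, 1 member in place of 0 shifted 2-fold. The levels of AREG, with 120 to 270 counts, had the widest counting intervals among the members relative to their size.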
